A study of Mus musculus with 14 samples.

Results

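Position-named probes are the probes of this mouse expression array whose entry gives a chromosome interval in place of a transcript accession. They are the array's probes for candidate long intergenic non-coding RNA (lincRNA) regions. The files carry the interval and, for nearly all probes, a letter F or R, which is read here as the strand; the word lincRNA itself is not in them. The array holds 16194 such probes in 3543 regions, which is 29.1% of its 55681 probes. Members were selected on detection: a probe was kept when, in 1 group or more, the scanner software marked it as well above background on each array, and 5573 probes (34.4%) in 2299 regions met that rule. Detection and the signal behind it are therefore described below without a test. Of the members, 3901 were above background on all 14 arrays and 1672 on fewer, and these sets are counted apart because a member that entered through 1 bright group is bound to differ between groups.

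RNA came from 1.5 mm punches of medial prefrontal cortex (mPFC) of 14 wild-type C57BL/6 mice, 1 mouse per array. The 5 naïve mice went through cage transfer, and the 6 susceptible and 3 resilient mice went through repeated social defeat stress, in which a mouse is repeatedly exposed to an aggressor and is then classed by its behaviour. All mice were perfused and sampled 4 h after the last session, and the age of the mice is not given in the sources used here. The study ran independent experiments with different mice, which the labels do not assign to arrays, so experiment was not analysed. Neuron, astrocyte and microglia markers (5, 6 and 6 genes) were above background on all 14 arrays.

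LincRNAs are transcribed outside protein-coding genes, are often spliced and polyadenylated, and as a class tend to be less abundant and more tissue-restricted than messenger RNAs. Some act at the locus they are made from and others elsewhere in the cell, and many transcribed intervals have no known function. In brain, several are known to be restricted to neurons or to change with neuronal activity. An array interrogates such a region with short probes on 1 or both strands, so agreement between probes of 1 region and strand is the internal check that the files allow. Mean levels below are log2 signal minus the array's 75th percentile, so 0 is the brightness of that percentile. A level also depends on how well a probe binds, so levels of different probes are not an order of abundance.

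Slides and brightness moved with these signals and are given first. The arrays lay on 3 slides: slide 1 held 1 naïve, 2 susceptible and 2 resilient arrays, slide 2 held 2, 2 and 1, and slide 3, scanned on another day, held 2 naïve and 2 susceptible arrays and no resilient array. All naïve arrays sat in row 1 of their slide and all defeated mice in row 2, so the effect of row and that of defeat cannot be told apart. Brightness, the array's 75th percentile, lay at a log2 signal of 7.70 ± 0.68 (SD, n = 5) in naïve, 8.09 ± 0.59 (n = 6) in susceptible and 7.91 ± 0.12 (n = 3) in resilient arrays. Between 48.0% and 65.4% of the spots of an array were above background and 0 were saturated. On slide 3 the 3901 members above background throughout had a median level that lay 0.23, 0.23, 0.41 and 0.30 below NM_ probes of like signal (naïve 4, naïve 5, susceptible 5 and susceptible 6). On slides 1 and 2 the same difference lay between -0.09 (resilient 3) and 0.21 (naïve 2). The part of slide and brightness in each result was not tested as a cause, and results are therefore given with and without slide as a block.

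**Figure D1:**
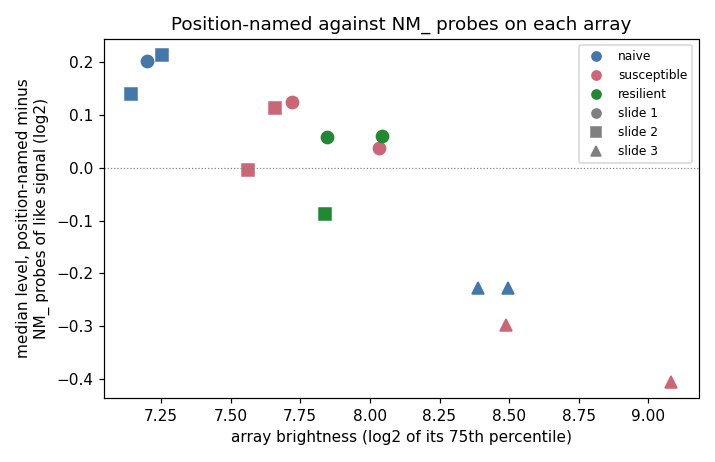
Each point is 1 array. The x axis is the array's brightness (log2 of its 75th percentile) and the y axis the median level of position-named probes minus that of NM_ probes of like signal (log2); colour marks the group and shape the slide. The 4 slide 3 arrays sit between -0.23 and -0.41, below all other arrays.

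Position-named probes were detected less often than probes for annotated transcripts. The share of members was 34.4% among position-named probes, 39.4% among 1400 probes with an NR_ accession (RefSeq non-coding transcripts) and 69.7% among 26585 probes with an NM_ accession (RefSeq messenger RNAs). Above background on all 14 arrays were 24.1%, 29.9% and 60.5% of these classes. Per array the position-named share was 34.3% ± 5.5 (SD, n = 5) in naïve mice, 39.8% ± 5.6 (n = 6) in the susceptible and 40.6% ± 5.5 (n = 3) in the resilient ones, and the groups overlapped. The lowest array was naïve 3 with 4409 probes and the highest susceptible 5 with 7877. For NM_ probes the shares were 69.0% ± 5.1, 72.8% ± 3.6 and 73.0% ± 2.7.

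**Figure D2:**
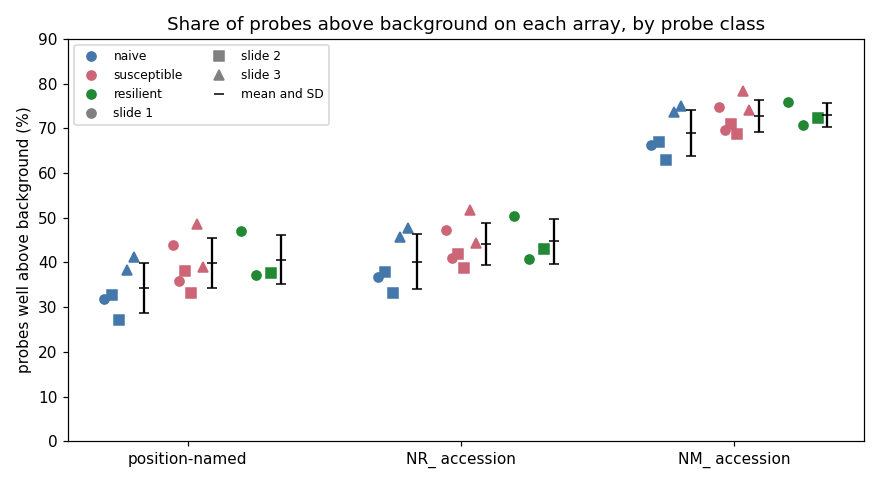
Percent of probes well above background on each array (y axis) for position-named, NR_ and NM_ probes (x axis), coloured by group, with slide as the shape and the mean and SD as black bars. Position-named and NR_ probes lie far below NM_ probes on each array, and the 3 groups overlap within each class.

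Of the 1672 members that were not above background on all arrays, 831 entered through the susceptible and resilient groups together and 646 through the resilient group alone, which has 3 arrays to pass where the naïve group has 5. Through the naïve group alone 19 entered, and through the susceptible group alone 71. No such split over all probes is set beside these counts. The mean share of NM_ probes above background was also lower in naïve arrays (69.0%) than in susceptible (72.8%) and resilient ones (73.0%). Nothing particular to members is therefore read from the split. Just inside the rule, 2 members were above background on 3 arrays. Just outside it, 17 probes were above background on 11 arrays without filling any group, and of all 10621 probes outside, 6473 were above background on 0 arrays.

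The detected signal was low. The median level of members was -1.72 (quartiles -2.64 and -0.35), against -1.24 for NR_ and 0.37 for NM_ probes that passed the same rule. A level above 0 was reached by 1163 members (20.9%), against 35.3% of NR_ and 55.1% of NM_ probes.

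**Figure D3:**
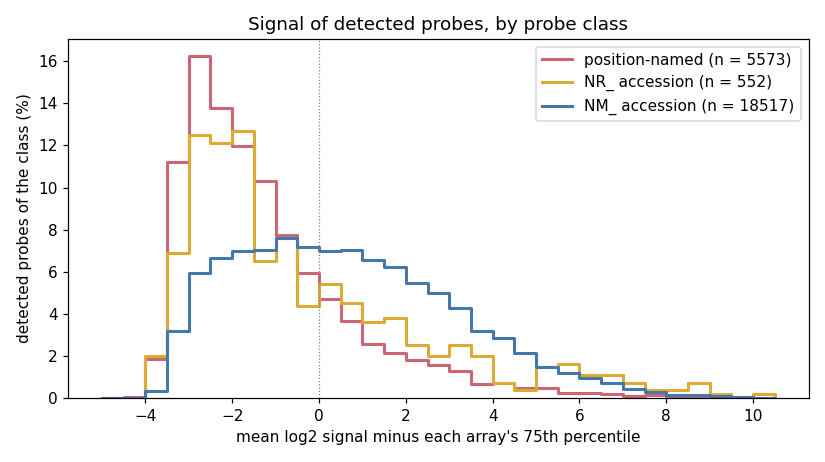
Distribution of the mean level over 14 arrays (x axis, log2 signal minus the 75th percentile) among detected probes of each class, as percent of the class (y axis) in bins of 0.5. Position-named probes peak between -3 and -2.5 and thin out above 0, where 20.9% of them lie.

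Detection varied little with strand and more with region length. F probes were members in 34.8% of 8171 cases and R probes in 34.0% of 8010. Regions had a median length of 7304 bp (quartiles 786.5 and 21807 bp). The share of members was 29.3% in regions of up to 500 bp and 31.2%, 34.0%, 35.3% and 37.4% in the next classes, bounded by 2000, 10000 and 50000 bp. By chromosome it ran from 26.1% on chromosome 9 to 41.9% on chromosome 17.

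Probes of 1 region and strand were seldom all detected. Among 1809 region strands with 3 probes, 41.1% had no member, 32.1% had 1, 14.5% had 2 and 12.3% had all 3. Among 973 with 5 probes, 22.6% had no member and 5.24% had all 5. Of 1067 regions with probes for both letters, 566 had a member on each strand, 392 on 1 strand and 109 on neither. In the 327 regions with 5 probes on each strand, 983 of 3270 probes were members. There, 53 regions had at least 4 members on a strand, of which 10 had 0 on the other strand and 3 had at least 4 on both.

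The 6 members with the highest mean level did not pass a test between groups. A_30_P01024724 (mm9 chr13:73472571-73483846, R) averaged 8.68. It read 9.02, 9.19, 8.78, 8.29 and 8.17 in naïve mice 1 to 5, with 7.97 to 9.14 (median 8.83) in susceptible and 8.58, 8.78 and 8.74 in resilient mice. Its 4 lowest arrays were those of slide 3. A_30_P01020570 (chr12:73838608-73862621, F) averaged 8.52, and its counterpart on the R strand of the same region, A_30_P01031264, averaged 7.94. A_30_P01032942 (chr4:94742359-94822969, F) averaged 8.32, A_30_P01030669 (chr7:108209996-108216032, R) 7.99 and A_30_P01020015 (chr17:39982023-39983277, F) 7.86. Differences of the 6 between susceptible and naïve mice ran from -0.46 to -0.01 (limma, n = 6 and 5). Once slide was blocked, A_30_P01030669 alone among them passed, against naïve mice in the susceptible and the resilient group (adjusted p = 0.0300 and 0.0416, limma).

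Ranked by the mean level over all members of a region, partly detected ones included, the first 3 regions with members on both strands are at chr12:119825125-119850750, chr7:108209996-108216032 and chr17:39960567-39992817. In the first, the F probe A_30_P01020276 averaged 6.06 and was lower in susceptible than naïve mice by a log2 difference of -0.54, while the R probe A_30_P01029802 averaged 3.41 and differed by 0.03; neither passed (adjusted p = 0.120 and 0.925, limma). In the blocked fit the F probe passed (adjusted p = 0.0143) and the R probe did not (0.818). In the chr7 region all 3 members, 2 on F and 1 on R, lay lower in susceptible mice, by -0.68, -0.39 and -0.46, and passed only once slide was blocked (adjusted p = 0.00954, 0.0195 and 0.0300, limma). In the chr17 region the 4 F and 5 R members, with mean levels between 2.98 and 5.88, differed by -0.11 to 0.08 and none passed in either fit.

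Signals of probes from 1 region moved together within a strand. After group means were taken out, the median Pearson correlation over 14 arrays was 0.64 in 2809 pairs from 1 region and strand (806 regions), 0.44 in 1835 pairs from opposite strands of 1 region and 0.39 in 3697 pairs on different chromosomes. Pairs share their arrays, so slide and brightness enter each of these values. After slide and brightness were also taken out, the medians were 0.36 within a strand, 0.08 across strands, 0.09 in 247 pairs of regions within 50 kb and 0.06 across chromosomes. Correlations above 0.8 were then found in 15.0% of same-strand pairs, 2.51% of opposite-strand pairs and 1.62% of pairs on different chromosomes. These values are descriptions over pairs that reuse probes, with no test, and pairs of 1 strand may also share sequence.

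**Figure D4:**
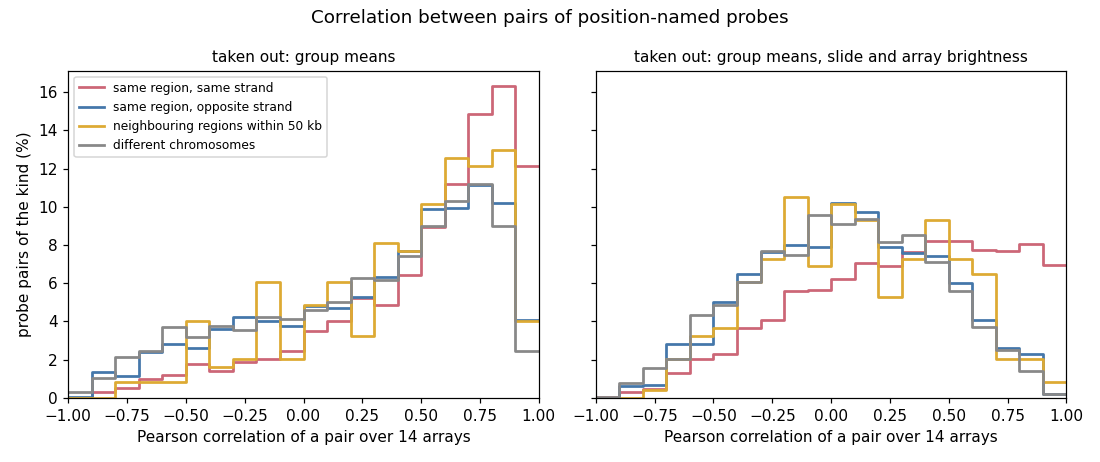
Distribution of the Pearson correlation over 14 arrays between probe pairs (x axis), as percent of the pairs of a kind (y axis), after group means (left) and after group means, slide and brightness (right) were taken out. In the right panel pairs of 1 region and strand stand to the right of the other kinds, with a median of 0.36 against 0.06 to 0.09.

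Susceptible mice were compared with naïve mice to ask which members differ after defeat in animals classed as affected. Of 29803 probes of all kinds tested, 409 passed at an adjusted p of 0.05 (1.37%; 0.842% higher and 0.53% lower in susceptible mice; limma with Benjamini-Hochberg adjustment). Of the 3901 members above background on all arrays, 31 passed (0.795%), 7 higher and 24 lower, in 28 regions. The members' share lies below that of all probes. The 31 differences had sizes from 0.48 to 1.45 on the log2 scale and adjusted p from 0.0360 to 0.0491. In 26 of them the groups did not overlap. All 31 had the same sign on each of the 3 slides, with median sizes of 0.72, 1.06 and 0.41 on slides 1, 2 and 3. The 31 were selected by their p on these same arrays, so non-overlap and equal signs follow largely from the selection. Both are descriptions and add no support to the calls. Neither count is set beside the same count over the 409 called probes, so neither is read as particular to members. All 31 also passed with slide as a block. The count was 0, however, when the background was corrected by normexp or the filter was dropped. It was also 0 when the fit held the compared groups alone, and when slide and brightness entered together. In these fits 392 to 486 members had an unadjusted p under 0.05 (limma). No share over all probes is set beside these counts, so nothing particular to members is read from them.

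The count rested on single mice. It was 0 without naïve 1, 2 or 3, without susceptible 1, 2, 3 or 4, or without resilient 1, which enters only the estimate of spread. It was 1 without resilient 3, 2 without susceptible 5 and 4 without resilient 2. Without naïve 4, naïve 5 or susceptible 6 it was 23, 78 and 88. No share over all probes is set beside these counts, so the dependence on single mice is not read as particular to members. The highest adjusted p that any of the 31 reached when 1 mouse was left out was 0.111 (limma). With slide as a block, 28 of the 31 passed whichever mouse was left out. Of all 506 members called in that fit, 121 did, a count likewise without a share over all probes.

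Among members above background on all 14 arrays, the largest called rises came from the F strand of a stretch of chromosome 14. A_30_P01023090 (mm9 chr14:26973425-26986650) read 0.10, -0.11, -0.55, 0.05 and 0.42 in naïve mice 1 to 5, from 0.53 to 0.95 (median 0.77) in susceptible mice and 1.03, 0.83 and 0.99 in resilient mice. All 9 defeated mice lay above all 5 naïve mice. It rose by 0.79 ± 0.15 (SE), a fold of 1.73 (limma adjusted p = 0.0414, n = 6 and 5). A_30_P01024251 (chr14:26834450-26847000, F) rose by 0.77 ± 0.13 (limma adjusted p = 0.0360) and followed the first probe closely from mouse to mouse, at 0.01, -0.11, -0.43, -0.04 and 0.33 in naïve mice. The sequences of the probes were not used here, so shared or repeated sequence between these intervals was not tested.

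Other F probes at the same place are set beside these. In the first interval A_30_P01021217 was higher by 0.51 without passing (limma adjusted p = 0.0870). In the second, A_30_P01018424 was higher by 0.44 (adjusted p = 0.117), while A_30_P01028064 was lower by -0.33 (adjusted p = 0.104; limma). In an overlapping interval, chr14:26842169-26845456, A_30_P01025655 was higher by 0.49 without passing (limma adjusted p = 0.236). The remaining F members here, A_30_P01022004, A_30_P01019479, A_30_P01026744, A_30_P01023621 and A_30_P01024155, became members through the defeated groups, on 10 to 13 arrays, so their differences of 0.45 to 1.06 had to lean upward and are given without a test. On the R strand of the second interval A_30_P01020556 and A_30_P01032968, both above background throughout, differed by -0.25 and -0.20 and did not pass (adjusted p = 0.296 and 0.374, limma). These neighbours were chosen for their position, after the values of the leading probes were seen.

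The other rises that the naming rule takes were smaller. A_30_P01032140 (chr1:38886199-38892924, R) read -1.09, -1.08, -2.00, -1.14 and -1.06 in naïve mice and from -0.82 to -0.18 in susceptible mice, and naïve 3 stands apart. It rose by 0.76 ± 0.17 (limma adjusted p = 0.0460), and 3 further R probes of its region differed by 0.34 to 0.74 without passing. The R member of an overlapping interval, A_30_P01020694, above background throughout, went the other way, by -0.17 (limma adjusted p = 0.652). A_30_P01022940 (chr6:127111250-127142925, F) rose by 0.66 ± 0.14 (limma adjusted p = 0.0441), and 4 further F probes of its region differed by 0.15 to 0.48 without passing. A_30_P01020295 (chr14:78214602-78226287, R) rose by 0.52 ± 0.11 (limma adjusted p = 0.0434). The other R members of its region, A_30_P01018605 and A_30_P01024178, differed by 0.46 and 0.17, and R members of overlapping intervals by -0.34 to 0.50, none of them passing.

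Among the same members the largest falls were larger than the rises. A_30_P01019416 (chr1:138518674-138521227, R) read 2.45, 2.37, 2.74, 1.33 and 1.34 in naïve mice, from -0.33 to 1.23 (median 0.56) in susceptible mice and 1.12, 0.22 and 0.58 in resilient mice. The groups did not overlap, and the 2 naïve arrays of slide 3 lay closest to the susceptible arrays. It fell by 1.45 on the log2 scale (SE 0.32, fold 2.72 lower; limma adjusted p = 0.0454). The other R probes of that interval, A_30_P01019012 and A_30_P01022983, were above background on 0 and 1 arrays. In overlapping intervals the R members A_30_P01029724, A_30_P01031814 and A_30_P01032813, above background throughout, differed by only -0.13, 0.004 and -0.10. None of these passed (limma adjusted p = 0.813, 0.992 and 0.633).

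A_30_P01024630 (chr13:44217172-44224947, R) read 4.48, 4.57, 5.04, 3.61 and 3.61 in naïve mice, from 2.14 to 3.46 in susceptible mice and 3.11, 2.16 and 2.82 in resilient mice, and fell by 1.40 (SE 0.30; limma adjusted p = 0.0450). The other 4 R probes of its region were not members. On its F strand, A_30_P01030029 was lower by -1.17 without passing (limma adjusted p = 0.0830) and passed once slide was blocked (adjusted p = 0.0133), while A_30_P01023509 differed by -0.13 (adjusted p = 0.587, limma).

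A_30_P01025644 (chr2:115892960-115911647, F) read 2.88, 3.18, 3.70, 2.46 and 2.36 in naïve mice and from 1.02 to 1.94 in susceptible mice, and fell by 1.29 (SE 0.25; limma adjusted p = 0.0434). All 9 defeated mice lay below all 5 naïve mice. A_30_P01022960 (chr15:82036791-82037660, R) fell by 1.31 (limma adjusted p = 0.0480) although its groups overlapped. Naïve 5 at -0.90 lay below susceptible 2 at -0.85. Of the R members in an overlapping interval, A_30_P01021732, above background throughout, was lower by -0.26 without passing (limma adjusted p = 0.620). A_30_P01017531 and A_30_P01019557, above background on 13 and 11 arrays, differed by -0.42 and 0.05. A_30_P01029595 (chr8:37582187-37621987, R) fell by 1.18 (limma adjusted p = 0.0460), while the other R member of its region, A_30_P01020297, above background on 12 arrays, differed by 0.07. A_30_P01020714 (chr5:75389503-75396250, R) fell by 1.16 (limma adjusted p = 0.0456). The other R members of its region, A_30_P01029813 and A_30_P01031866, above background on 12 and 13 arrays and in all naïve mice, were lower by -0.52 and -0.72 without passing. For A_30_P01020714 the fall was 2.28 in size on slide 1, where naïve 1 read -0.16, against values of -1.75, -1.60, -1.45 and -2.15 in the other naïve mice.

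Of the 1671 tested members above background on fewer arrays, 18 passed (1.08%, against 1.37% of all probes), 16 higher and 2 lower. Entry through a bright group favours the direction of most of these differences, so nothing is read from the count, and the leading ones are described without a test. A_30_P01020282 and A_30_P01024414 entered through the resilient group alone, which does not fix a difference between susceptible and naïve mice. A_30_P01028041 (chrX:148720661-148763177, R) was above background in 3 of 5 naïve mice and all defeated mice and read from -4.01 to -2.46 in naïve and -2.25 to -1.33 in susceptible mice. A_30_P01021998 (chr1:163527603-163527999, F), also above background in 3 of 5 naïve mice, read from -3.93 to -2.39 and from -2.18 to -1.25. A_30_P01022455 (chr9:27155685-27156100, F), in 2 of 5, read from -4.24 to -3.07 and from -3.13 to -1.86, and its groups overlapped. In all of these naïve 3, the array with the fewest probes above background, read lowest. The lower ones entered through the naïve group alone. A_30_P01021464 (chr6:133054025-133069850, R) read from -2.29 to -1.84 in naïve and -3.35 to -2.76 in susceptible mice. A_30_P01027233 (chr11:82593102-82594396, R), above background in 5 of 5 naïve, 3 of 6 susceptible and 1 of 3 resilient mice, read from -3.24 to -2.39 and from -4.13 to -3.04, and its groups overlapped.

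With slide as a block, 506 of the 3901 members (13.0%) passed, 86 higher and 420 lower in susceptible mice, in 388 regions. Of all probes tested 14.6% passed in that fit, 7.21% higher and 7.38% lower. The members' calls were thus mostly lower while those of all probes were split evenly. With brightness as a covariate in place of slide 365 members passed and the split turned, to 243 higher and 122 lower, against 9.96% of all probes (6.31% higher). With slide and brightness together 0 members passed, and 392 had an unadjusted p under 0.05 (limma), a count given without a share over all probes.

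Probes of 1 region and strand were called in 1 direction. When slide was blocked, 70 region strands held at least 2 called members, and in each of the 70 all calls pointed the same way. Most member calls in that fit were lower, as given above, so calls from different regions would often agree too. Agreement between calls of different regions was not counted, so nothing particular to 1 region and strand is read from the 70. The leading examples below were chosen after their values were seen and carry no further test. At chr6:83541250-83560425, all 5 F members fell, by 0.52 to 0.64. At chr15:32167516-32174427, 4 of 5 R members fell, with differences of all 5 between -0.76 and -0.55. At chr14:33895294-33923644, all 3 F members fell, by 0.78 to 1.22. Rises of 3 members of 1 strand were seen at chr11:112905201-113062945 (R, 0.45 to 0.68), chr8:27912000-27992750 (F, 3 of 5 members) and chr9:51905865-51911474 (F, 0.34 to 0.57).

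The region chr5:35975265-35982561 had 4 members on each strand, all above background on all 14 arrays. On the F strand A_30_P01024606 read 6.84, 7.35, 7.12, 6.54 and 6.42 in naïve mice, from 5.81 to 6.23 in susceptible mice and 5.57, 5.94 and 5.94 in resilient mice. No defeated mouse reached the lowest naïve mouse. A_30_P01024606, A_30_P01021593 and A_30_P01022310 fell by 0.81, 0.87 and 0.83 without the block (limma adjusted p = 0.0434, 0.0381 and 0.0445), and A_30_P01021642 was lower by -0.72 (adjusted p = 0.0557) and passed with the block (adjusted p = 0.0126).

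On the R strand of that region the 4 members differed by -0.22 to -0.15 between susceptible and naïve mice and did not pass in either fit (adjusted p from 0.799 to 0.817 without and 0.121 to 0.296 with the block, limma). Their readings split by slide instead: A_30_P01021070 read 3.70, 3.87 and 3.91 in naïve mice 1 to 3 and 2.14 and 2.57 in naïve 4 and 5, which were on slide 3. The difference between the strands was not tested.

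**Figure D5:**
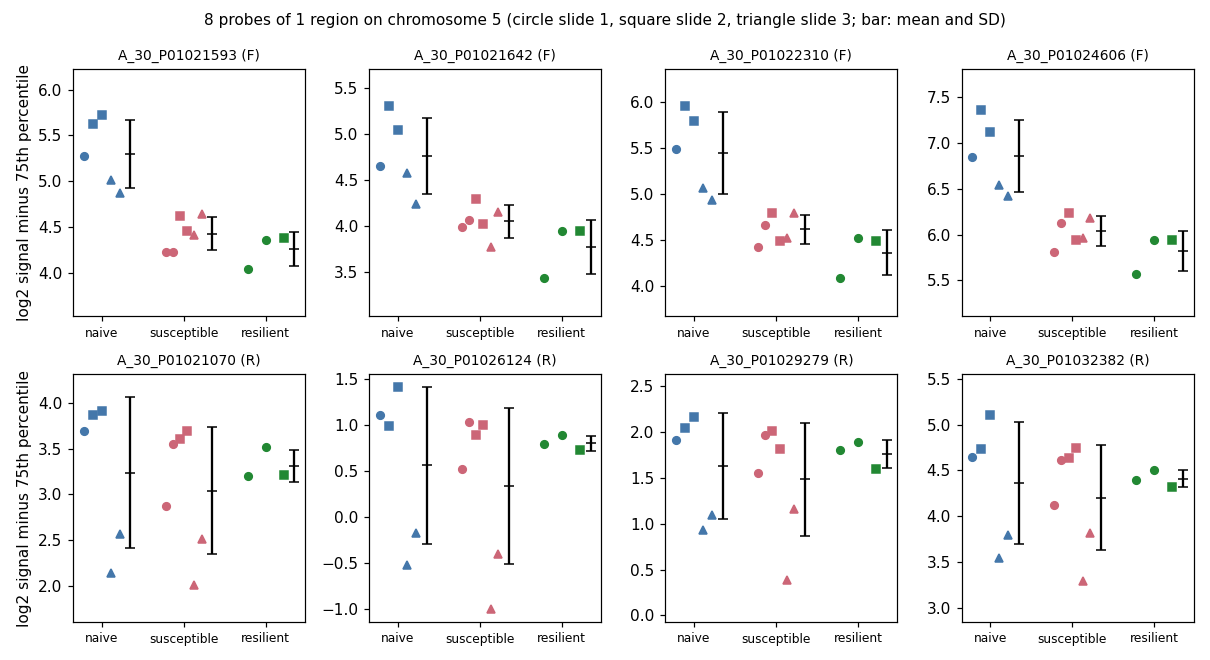
Level of the 8 members of the chromosome 5 region on each array (y axis, log2 signal minus the 75th percentile; all panels span the same range), by group on the x axis, with slide as the shape and black bars for mean and SD. The 4 F probes (top) are lower in all susceptible and resilient mice than in naïve mice except susceptible 3 on A_30_P01021642, and the 4 R probes (bottom) are low on the slide 3 arrays of both groups.

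As a set, members shifted little. The median difference between susceptible and naïve mice was -0.05 on the log2 scale over the 3901 members, 0.01 over all probes tested and 0.02 over NM_ probes of like signal. Of the members 40.4% were higher in susceptible mice, against 52.6% of NM_ probes of like signal. The members' median was -0.08 when slide was blocked and 0.06 with brightness as a covariate, so its sign depended on the adjustment. NR_ probes of like signal had a median of -0.10. The median within-group SD was 0.29 for members and 0.26 for NM_ probes of like signal, and 0.19 and 0.20 with slide as a block.

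The summed levels of several marker lists differed between the same groups, most with overlap between arrays. The summed linear signal of 5 blood leukocyte markers, 1 of them above background on all arrays, was 0.54 to 0.92 times the 75th percentile in naïve, 1.07 to 7.01 in susceptible and 1.01 to 2.23 in resilient arrays. That of 6 meningeal fibroblast markers, 4 above background on all arrays, was 14.5 to 33.4, 5.84 to 25.1 and 6.95 to 26.6. The 6 astrocyte markers summed to 601 to 782 in naïve, 425 to 540 in susceptible and 439 to 508 in resilient arrays, and the 6 inhibitory neuron markers to 66.2 to 84.7, 86.4 to 106 and 77.7 to 118. The astrocyte, inhibitory neuron and leukocyte sums of susceptible mice did not overlap those of naïve mice. The sum of 4 erythroid markers, 2 above background on all arrays, was 3.75 to 15.1, 5.97 to 60.9 and 7.72 to 44.9. Oligodendrocyte markers summed to 48.9 to 164, 41.1 to 66.8 and 40.6 to 86.3, endothelial markers to 35.6 to 53.9, 33.4 to 48.1 and 28.9 to 55.5, and pericyte or smooth muscle markers to 9.60 to 26.3, 4.81 to 18.1 and 5.93 to 15.9. None of these markers was below background on all arrays. Their part in the members' differences was not tested, and in tissue punches fewer cells of a type and less RNA per cell cannot be told apart.

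Resilient and naïve mice were compared in the same way, with the same naïve arrays. Of the 29803 probes 0 passed (limma), and 419 of the 3901 members had an unadjusted p under 0.05. That count too has no share over all probes beside it, so nothing particular to members is read from it. With slide as a block 220 members passed (5.64%), 29 higher and 191 lower, against 4.85% of all probes (1.98% higher and 2.88% lower). With the replicate number as a block 194 passed (4.97%), 29 higher and 165 lower, against 5.48% of all probes (2.25% higher and 3.23% lower). With brightness as a covariate 276 passed, 169 higher and 107 lower, against 8.47% of all probes (4.84% higher). The count with slide blocked was 0 without naïve 1, resilient 1 or resilient 3, 10 without naïve 2 and 30 without resilient 2. It was 44 without susceptible 2, 47 without susceptible 5, 143 without naïve 4 and 393 without susceptible 6. These counts without a mouse have no share over all probes beside them either. The members of smallest p were A_30_P01023090 and A_30_P01024251, higher by 0.97 ± 0.18 and 0.94 ± 0.16, and, on the lower side, A_30_P01021593 and A_30_P01024606 of the chromosome 5 region, both by -1.04. These 4 had an adjusted p of 0.0812 (limma) and none of their resilient readings overlapped a naïve reading. The naming rule also takes A_30_P01027600 (chrX:11239288-11359919, R), a member through the resilient group alone, and A_30_P01032309 (chr8:83218278-83223553, F), a member through the naïve group alone. Their levels chose them, so they are given as readings: -2.95, -2.96 and -3.23 in resilient against -4.32 to -3.47 in naïve mice for the former, and -4.11, -3.46 and -3.96 against -2.86 to -2.29 for the latter. The median over members was 0.03, and -0.14 with slide as a block, against 0.02 for NM_ probes of like signal in both fits.

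No member passed between susceptible and resilient mice. Of all probes 0 passed with or without the slide block (limma). An unadjusted p under 0.05 was reached by 19 of the 3901 members without it and 125 with it (limma). These counts are also given without a share over all probes. All adjusted p of the members of smallest p rounded to 1. Of the 6, A_30_P01026191 (chr14:115423660-115463160, R) is a member through the resilient group alone, being above background on 0 arrays of the other groups, so its difference had to lean that way. It read -3.01, -3.01 and -3.03 in resilient mice and from -5.54 to -3.53 in susceptible mice. Its readings in naïve mice, from -4.61 to -3.17, overlapped the susceptible range. With 3 resilient mice the comparison has little precision, and a missing call does not show that the groups are alike. The median over members was -0.08 without and 0.06 with slide as a block, against 0.00 and -0.01 for NM_ probes of like signal.

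Members were clustered along the genome in places. The 3 groups of members within 50 kb of one another that held most members lay at chr12:110842149-110988678 (35 members of 64 probes, 10 regions), chr11:95561419-95658549 (29 of 43 probes, 5 regions) and chr5:121669792-121792814 (28 of 32 probes, 6 regions). In the chromosome 12 group 23 members were on F and 12 on R, and 17 were above background on all arrays, with a median difference of -0.01 between susceptible and naïve mice. The chromosome 11 group had a median difference of -0.13 over 25 such members and the chromosome 5 group 0.18 over 18. In none of the 3 groups did a member pass without the block, and with slide as a block 3, 0 and 2 members passed (limma).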

How the data were processed

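The intensity values, linear and per spot, were background-subtracted by Agilent Feature Extraction 11.0.1.1 (1 colour, build mm9) before they were deposited, per the file headers. Per the labels' protocols, 35 ng of RNA from 1 mouse was labelled per array with a low-input kit. The authors' value table holds log2 values of the same arrays and served as an alternative. Of 62976 spots per array, 3671 control spots and 104 to 184 outlier spots were left out, spots of a probe were averaged, and log2 processed signal minus the array's 75th percentile was taken. The 29803 probes above background throughout 1 group or more (12 others were left out for outlier spots) were fitted together with limma 3.58.1. The fit used lmFit and eBayes, with Benjamini-Hochberg adjustment over all probes and a threshold of 0.05, and was first checked on simulated data. The simulated arrays had independent noise without slide, row or brightness, so that check does not bear on these. P-values set a group difference against the spread between arrays of a group, which also holds slide and brightness unless these are in the fit.

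Like signal means bins of 0.5 log2 of mean level, with NM_ probes weighted to the members' bins. Named are, per comparison, the 6 largest rises and falls among called members above background on all arrays and the 3 largest among the others, the 3 smallest p each way where fewer than 3 passed, the 6 highest levels, the 3 brightest regions with both strands and the 3 largest groups within 50 kb; 1 such member is not reported here. Members, lists and rules were chosen with earlier results of these data known. Region sequences and neighbouring genes were not used here, for want of an mm9 genome among the references. The labels do not say that replicate numbers pair mice. Deviations of same-numbered mice from their group means correlated at -0.35 to 0.73 between naïve and susceptible mice, -0.32 to 0.33 between susceptible and resilient mice and 0.12 to 0.24 between naïve and resilient mice, where each pair exceeded 0.1; some of these pairs also share a slide. The alternatives were other normalisation, background, filters, blocks, covariates, groups, moderation and leaving out each mouse. The number of arrays limits the precision.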

Additional observations from a re-analysis of the deposited data

Results flagged for a closer look

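Levels of 32 named members and 4 array measures were examined in the naïve and susceptible groups, 72 sets of values in all, for a sample far from the rest of its group. Chance flags about 1 in 20 such sets, and 2 were found. For A_30_P01032140, naïve 3 read -2.00 and the next lowest naïve mouse -1.14, which is 0.907 of the group's range. For A_30_P01027600, susceptible 3 read -3.27 and the next highest susceptible mouse -3.54, which is 0.709 of the range.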

How the results depend on the processing

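The count of members above background on all arrays that differed between susceptible and naïve mice was 31. It was 0 with normexp background correction, with no filter, with only the groups compared, and with slide and brightness together (added after seeing the data). It was 12 with the filter on 7 arrays, 48 with that on all 14 and 47 with trend and robust moderation. These are 0.308%, 1.23% and 1.20% of members, against 0.618%, 1.97% and 1.71% of NM_ probes of like signal. It was 506 with slide, 561 with scan day and 365 with brightness in the fit, and 0 within slide 3. Those 3 adjusted fits called 13.0%, 14.4% and 9.36% of members, against 13.2%, 15.5% and 10.2% of NM_ probes of like signal. Leaving out 1 mouse gave 0 to 88. The replicate block gave 275 calls (7.05% of members, against 10.2% of NM_ probes of like signal). For resilient against naïve mice it gave 194 in place of 0. For that comparison slide gave 220, scan day 416 and brightness 276, and leaving out 1 mouse 0 to 7. Scan day there stands for 10.7% of members, against 8.59% of NM_ probes of like signal. With slide as a block, leaving out 1 mouse (added after seeing the data) gave 150 to 636 calls for susceptible mice and 0 to 393 for resilient mice. No share over all probes is set beside the counts that leave out a mouse. Median shifts moved beyond the spread between arrays only within slide 2, to -0.20 for resilient against naïve and 0.13 for susceptible against resilient mice. Without a filter the number of probes is 16194. The gap between same-strand and opposite-strand correlations was 0.20, and 0.28 after slide and brightness were taken out (added after seeing the data). Quantile scaling, the percentile over detected probes and the authors' table gave counts within 1.5 times of 31. The 17 called members that the naming rule takes were refitted under the planned and added alternatives other than those leaving out a mouse, which gives 284 pairs of a member and an alternative. The sign held in each pair and the call was lost in 136 of them, and none of the 12 uncalled ones turned sign. The cause of these differences was not tested.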
